A study of Mus musculus with 9 samples.

Results

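A set of 10 genes that mark tuft cells was followed through mouse thymic epithelium in which the dose or the presence of the transcription factor Foxn1 differed. The 10 genes were taken by name from a table of read counts for 38720 genes, and all 10 were found there: Pou2f3, Gnat3, Trpm5, Il25, Dclk1, Avil, Plcb2, Gng13, Chat and Ptgs1. Levels are given as CPM, counts scaled to a fixed library total. All 10 were higher in medullary than in cortical cells of Foxn1 transgenic mice, Pou2f3 by the least. For Il25, Gng13 and Chat, too low in cortical libraries to be tested there alone, this direction was bound to follow, which leaves 7 genes. Of all tested genes, 43.2% were called higher in medullary cells at 2 doses of the transgene and 40.4% at 1 dose. All 10 were lower in the medullary libraries labelled as having 1 dose of the transgene than in those labelled as having 2, as were 30.8% of all tested genes. Foxn1 itself ran the other way in those medullary libraries. In the cortical cells of these mice 9 of them stood at 19.2% of the medullary level or less. Pou2f3 was the exception, with a mean of 18.6 to 33.9 CPM in every cortical group.

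Tuft cells are rare epithelial cells of the gut, airways and thymic medulla that use the machinery of taste cells to sense their surroundings. A receptor of the taste family acts through a G protein that holds gustducin (Gnat3) and the gamma subunit Gng13, then through phospholipase C beta 2 (Plcb2) and calcium release to open the cation channel Trpm5. Pou2f3 is the transcription factor that tuft cells require. Stimulated cells release the cytokine interleukin 25 (Il25), acetylcholine, which is made by choline acetyltransferase (Chat), and eicosanoids, which are made by cyclooxygenase 1 (Ptgs1) among others. Avil (advillin) binds the actin bundles of the apical tuft, and Dclk1 is a microtubule-associated kinase widely used as a marker. In the thymus such cells belong to the mature medullary epithelium.

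RNA was sequenced from 20 libraries in 6 groups. Heterozygous mice carried 1 dose, and homozygous mice 2 doses, of a FLAG-tagged Foxn1 transgene on a bacterial artificial chromosome (wt*), and both lacked functional Foxn1 of their own (nu/nu, the nude background). Cortical thymic epithelial cells (cTEC) were sequenced as 3 libraries from heterozygous mice (42cT) and 3 from homozygous mice (96cT). Medullary thymic epithelial cells (mTEC) gave 2 libraries from each genotype (42mT and 96mT). A separate pair of cTEC groups came from mice carrying beta5t-rtTA and floxed Foxn1 (Foxn1fl/fl) on both chromosomes, 72 hours after doxycycline. PcT, with 5 libraries, came from mice that also carried 1 copy of tetO-Cre, so that exons 7 and 8 of Foxn1 could be removed, and NcT, also with 5, from mice without tetO-Cre. The rtTA is driven from beta5t, a gene of cTEC and their precursors, and these mice gave cTEC libraries only. All cells were sorted as CD45-negative, EpCAM-positive and MHCII-positive, with cTEC positive for Ly51 and negative for UEA1 and mTEC the reverse. The labels do not give ages and do not say that libraries of a group came from different animals, so p-values measure the spread between these libraries, which may be technical.

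Library totals ran from 20719630 to 22372633 counts, with 19818 to 22096 genes detected in cTEC and 23759 to 25434 in mTEC. Foxn1 stood at 1166 ± 38.0 CPM (SD, n = 3) in 42cT, 1364 ± 103 (n = 3) in 96cT, 494.9 ± 9.83 (n = 2) in 42mT and 317.9 ± 15.5 (n = 2) in 96mT. It was at 453.6 ± 91.6 CPM in NcT and 433.6 ± 81.1 in PcT (n = 5 each). It was lower in 42cT than in 96cT (log2 -0.36 ± 0.06, SE, edgeR adjusted p = 4.45e-04) but higher in 42mT than in 96mT (0.66 ± 0.08, adjusted p = 1.68e-05), so in mTEC the Foxn1 counts go against the labelled dose. These counts cover the whole gene, so they check neither the removal of 2 exons nor the transgene alone. Heterozygous and homozygous, and 1 and 2 doses, are used below for libraries so labelled. The medullary labels held for Aire, the regulator of tissue-restricted antigens, at 998.6 to 1188 CPM in mTEC libraries against 1.05 to 16.3 in cTEC libraries. The cortical proteasome gene Psmb11 (beta5t) was at 961 to 1053 CPM in 96cT and 101 to 108 in 42cT, but at 0.41 to 1.79 in NcT and 0 to 0.69 in PcT. The 5 NcT libraries were uneven: their 8 cTEC markers summed to between 6490 and 23620 CPM and their 16 thymocyte markers to between 106 and 743 CPM, and library 5 was the highest in both.

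On the mouse assembly GRCm38.p6 the RefSeq gene spans are chr9:43123927-43205755 for Pou2f3, chr5:17962570-18019668 for Gnat3, chr17:25717172-25719102 for Gng13, chr2:118705003-118728661 for Plcb2 and chr7:143071529-143094642 for Trpm5. Il25 spans chr14:54932695-54935837, Chat chr14:32408203-32465909, Ptgs1 chr2:36216742-36258593, Avil chr10:127000065-127020994 and Dclk1 chr3:55242303-55539068. The strand setting of the counting is not given in the sources used here, so reads from overlapping genes cannot always be told apart. Gng13 overlaps the end of Chtf18, a replication factor gene, which had 576 to 611 counts in 42mT and 263 to 323 in 96mT, the opposite order from Gng13. Slc18a3, the vesicular acetylcholine transporter gene, lies inside Chat, and 3 predicted genes overlap Dclk1.

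The starts of 4 genes that stood at 3.48 CPM or less in every transgenic cTEC library and were all higher in mTEC are shown as the 250 bases before the RefSeq start, 5′ to 3′ on the gene's strand. The windows are chr5:17962320-17962569 (plus strand) for Gnat3, chr17:25716922-25717171 (plus) for Gng13, chr7:143094643-143094892 (minus) for Trpm5 and chr14:32465910-32466159 (minus) for Chat. Capitals mark GACGC, the core of the motif known for FOXN1.
Gnat3: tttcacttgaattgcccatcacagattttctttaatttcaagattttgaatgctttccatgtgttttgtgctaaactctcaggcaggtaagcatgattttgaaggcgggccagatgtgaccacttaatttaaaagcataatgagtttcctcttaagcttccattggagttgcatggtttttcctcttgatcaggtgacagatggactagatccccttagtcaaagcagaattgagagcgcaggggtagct
Gng13: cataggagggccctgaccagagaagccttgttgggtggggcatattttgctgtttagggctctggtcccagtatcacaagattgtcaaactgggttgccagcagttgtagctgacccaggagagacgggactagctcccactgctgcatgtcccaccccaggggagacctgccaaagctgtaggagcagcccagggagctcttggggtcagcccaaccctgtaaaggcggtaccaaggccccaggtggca
Trpm5: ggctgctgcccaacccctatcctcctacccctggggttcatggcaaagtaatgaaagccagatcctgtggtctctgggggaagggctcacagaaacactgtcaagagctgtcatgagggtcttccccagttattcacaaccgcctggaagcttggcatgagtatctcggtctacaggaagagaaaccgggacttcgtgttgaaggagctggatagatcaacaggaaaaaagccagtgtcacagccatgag
Chat: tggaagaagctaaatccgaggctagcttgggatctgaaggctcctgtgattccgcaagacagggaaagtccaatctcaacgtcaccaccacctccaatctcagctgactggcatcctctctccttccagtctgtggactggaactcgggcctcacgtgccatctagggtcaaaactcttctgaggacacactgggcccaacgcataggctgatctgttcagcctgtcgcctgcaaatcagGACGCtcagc
The table of promoter windows, each from 250 bases before to 50 after a start, held 10 windows for 8 of the 10 genes. GACGC, or its reverse complement GCGTC, was in 2 of these 10 windows, in Chat at 10 bases before the start and in another start of Gng13 at 62 bases before and 5 after it. It was found in 27.2% of all 32851 windows. The octamer ATGCAAAT, bound by POU factors such as Pou2f3, or its reverse ATTTGCAT, was in 0 of the 10 windows and in 1.74% of all windows. These matches describe the letters alone.

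All 10 genes were higher in mTEC than in cTEC at both doses (edgeR quasi-likelihood test, Benjamini-Hochberg adjusted p at most 0.05). The count of 10 higher and 0 lower stood against 43.2% of 19222 tested genes called higher and 39.4% called lower in homozygous mice, and 40.4% higher and 31.6% lower in heterozygous mice. Their median log2 difference was 7.59 in homozygous and 5.60 in heterozygous mice, against 0.04 and 0.09 over all tested genes. Il25, Gng13 and Chat passed the filter on low counts only through the mTEC libraries, so for these 3 a difference in this direction was bound to follow and their calls add nothing. The 7 genes that also passed in the cTEC libraries alone were all called higher at both doses, with medians of 7.36 and 5.51. Only 4 of the 10 had at least 10 counts in every 42cT library, against 7 in every 96cT library. Gnat3, Avil and Plcb2 thus passed in cTEC through 96cT. In heterozygous mice the other 4 had log2 differences of 5.51 (Trpm5), 2.89 (Dclk1), 2.29 (Ptgs1) and 0.32 (Pou2f3). Markers of other cells were also higher in mTEC: those of macrophages, dendritic cells and mast cells summed to 696 to 800 CPM in 96mT against 12.1 to 15.3 in 96cT, and to 212 to 217 in 42mT against 17.98 to 25.4 in 42cT. The 8 neuronal and glial markers summed to 322.7 CPM in both 96mT libraries against 11.1 to 13.7 in 96cT, and to 206 to 212 in 42mT against 19.3 to 24.1 in 42cT. Single genes weighed heavily in these sums. Syt1 had a mean of 288.5 CPM in 96mT and 163 in 42mT. In the first list Lyz2 had 507 and 87.5 CPM and Kit 92.5 and 97.6. The part of such cells in the differences was not tested. A level in these bulk libraries cannot tell fewer tuft cells from less RNA per cell. The comparisons of subset and of dose share libraries and are not independent of each other.

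Pou2f3, the transcription factor, differed least between the subsets. It was at 101 and 87.8 CPM in the 2 homozygous mTEC libraries and at 45.1 and 34.8 in the 2 heterozygous ones. The cTEC libraries gave 27.8, 30.9 and 28.2 CPM in homozygous mice and 29.8, 30.9 and 30.1 in heterozygous mice. All mTEC libraries were thus above all cTEC libraries, by little in the heterozygous mice. The fitted log2 difference was 1.46 ± 0.10 (SE) in homozygous mice (edgeR adjusted p = 1.01e-08) and 0.32 ± 0.10 in heterozygous mice (adjusted p = 0.0143). The second value rested on heterozygous mTEC library 1, without which it was 0.19 (adjusted p = 0.138, the highest of 18 alternatives, the lowest being 2.72e-04). By counts, the cTEC level of Pou2f3 was 30.7% of the mTEC level in homozygous mice and 75.7% in heterozygous mice. The same shares were 0.20% and 0.14% for Aire, and 4.48% and 29.8% for Krt5, a keratin of medullary cells.

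The genes of the transduction chain stood far apart between the subsets. Gnat3, the taste G protein alpha subunit, was at 327 and 275 CPM in homozygous and at 102 and 73.6 in heterozygous mTEC. Its cTEC libraries held 11 to 14 counts in homozygous mice (0.52 to 0.63 CPM) and 1 or 2 counts in heterozygous mice. Gnat3 had the widest gap between the subsets in heterozygous mice, at a log2 difference of 9.97 ± 0.25, and 8.78 ± 0.18 in homozygous mice (adjusted p = 1.07e-12 and 1.28e-13). Gng13, the gamma subunit, was at 37.4 and 27.7 CPM in homozygous and 8.62 and 8.87 in heterozygous mTEC, while its cTEC libraries held 1 to 5 counts each. Plcb2, the phospholipase, was at 242 and 267 CPM in homozygous and 127 and 103 in heterozygous mTEC. Its cTEC libraries gave 1.496, 0.91 and 1.52 CPM in homozygous and 0.50, 0.19 and 0.28 in heterozygous mice. For Plcb2, which leukocytes also express, the order of the cTEC groups was thus that of the mTEC groups. Trpm5, the channel at the end of the chain, was at 264 and 246 CPM in homozygous and 109 and 92.7 in heterozygous mTEC. Its cTEC libraries gave 0.94, 0.82 and 1.09 CPM in homozygous mice and 1.65, 3.48 and 1.15 in heterozygous mice, so that here the heterozygous libraries were the higher ones. Log2 differences between mTEC and cTEC were 8.13 ± 0.27 and 5.70 ± 0.28 for Gng13, 7.36 ± 0.16 and 8.37 ± 0.19 for Plcb2, and 7.82 ± 0.22 and 5.51 ± 0.20 for Trpm5, in homozygous and heterozygous mice in that order.

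Among the genes of secreted products, Il25, the cytokine, was at 7.04 and 5.93 CPM in homozygous and 3.01 and 2.55 in heterozygous mTEC, and its 6 transgenic cTEC libraries held 1 to 5 counts each. Chat was at 19.5 and 18.5 CPM in homozygous and 7.82 and 6.14 in heterozygous mTEC. Only 3 counts of Chat were found in all 96cT libraries together and 1 in all 42cT libraries, which makes the mTEC level 409 times the cTEC level in homozygous mice (95% interval 139 to 1987, exact, for counting error only) and 455 times in heterozygous mice (81.1 to 18040). At such counts cTEC gave no usable level of Chat, and Il25 and Gng13, with 6 to 11 counts in each transgenic cTEC group, were little better measured there. Ptgs1 was at 72.9 and 64.5 CPM in homozygous and 28.5 and 26.0 in heterozygous mTEC. Its cTEC libraries gave 1.73, 1.45 and 1.24 CPM in homozygous mice but 5.57, 4.22 and 5.92 in heterozygous mice. The cTEC level of Ptgs1 was thus 2.14% of the mTEC level at 2 doses and 19.2% at 1 dose. Log2 differences were 5.59 ± 0.31 and 3.91 ± 0.32 for Il25 and 5.30 ± 0.15 and 2.29 ± 0.13 for Ptgs1.

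Avil and Dclk1, the structural and kinase markers, behaved unlike each other in cTEC. Avil was at 311 and 286 CPM in homozygous and 113 and 87.9 in heterozygous mTEC, against 0.54 to 1.17 in 96cT and 0.32 to 0.97 in 42cT. Dclk1 was at 184 and 174 CPM in homozygous and 85.1 and 81.6 in heterozygous mTEC, and cTEC kept a clear level of it, with 6.50, 6.26 and 6.33 CPM in 96cT and 11.2, 12.0 and 8.58 in 42cT. The cTEC level was 0.30% and 0.61% of the mTEC level for Avil, and 3.56% and 12.7% for Dclk1, in homozygous and heterozygous mice. The log2 differences were 8.12 ± 0.19 and 7.26 ± 0.21 for Avil and 4.57 ± 0.10 and 2.89 ± 0.10 for Dclk1.

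**Figure D1:**
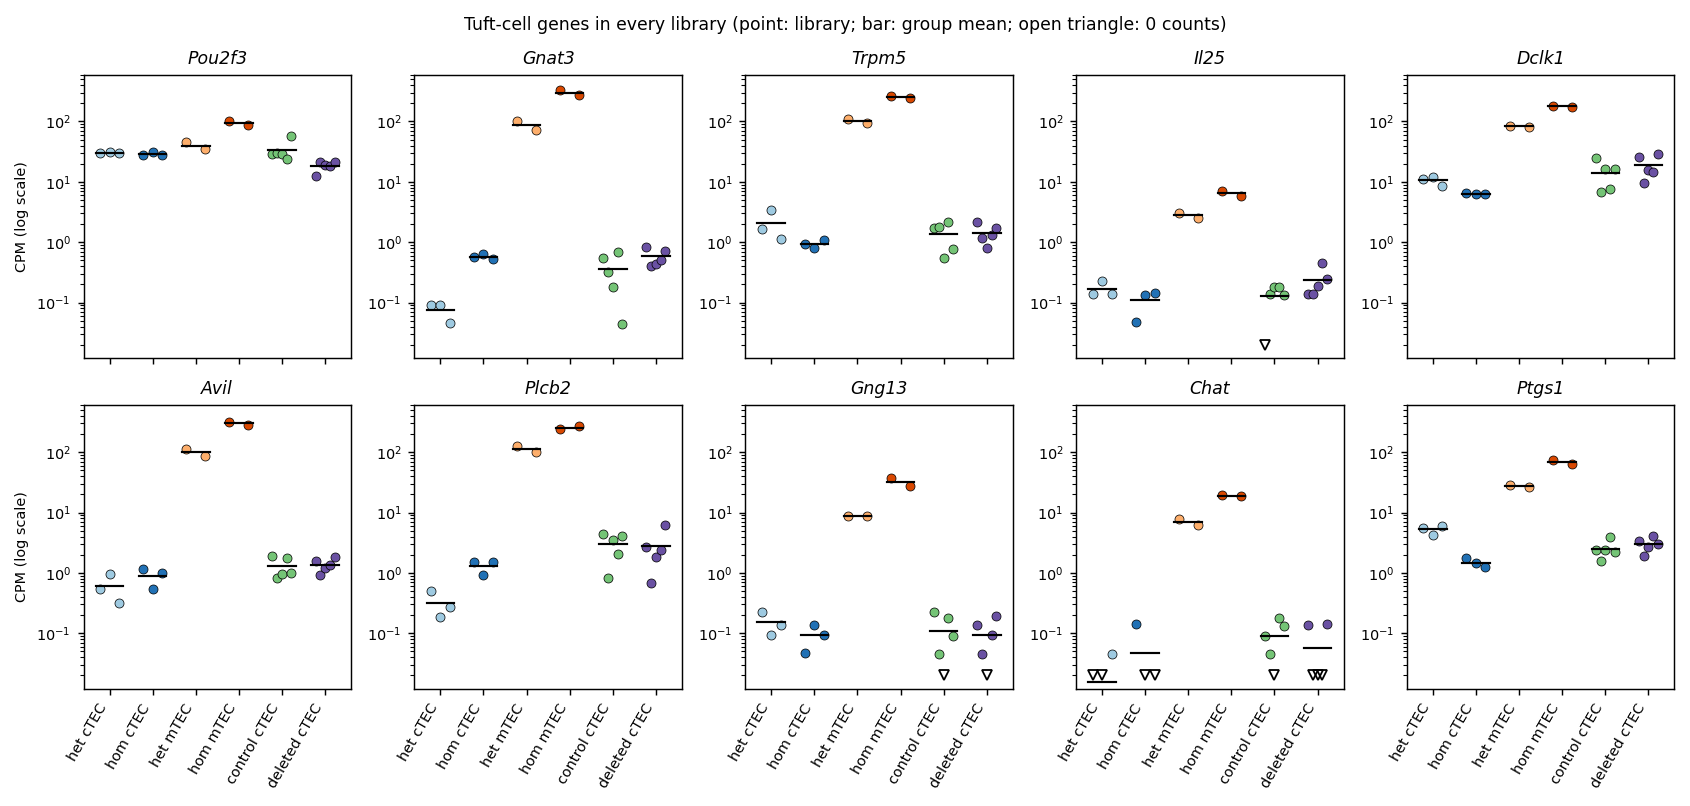
CPM (log scale) of each of the 10 genes in all 20 libraries by group, with a bar at the group mean and open triangles for libraries with 0 counts. The 2 mTEC groups sit above every cTEC library in 9 panels; for Pou2f3, NcT library 5 at 58.1 CPM lies above both 42mT libraries.

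In all, 11 pairs of gene and library had 0 counts, all in cTEC and for Il25, Gng13 or Chat. A count of 0 allows up to 3 counts, which is 0.135 to 0.144 CPM in those libraries, so these genes were not detectable there at this depth.

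Within mTEC the 10 genes differed in 1 direction between the libraries labelled by transgene dose. All 10 were lower in mTEC labelled heterozygous than in mTEC labelled homozygous and 0 were higher, opposite to Foxn1 itself in these libraries, where 30.8% of all tested genes were called lower and 28.9% higher. Their median log2 difference was -1.31, against 0.01 over all genes, and in all 10 both heterozygous libraries lay below both homozygous ones. The same order of libraries held for 36.6% of all genes with counts. Pou2f3 itself went from 94.4 ± 9.31 to 40.0 ± 7.27 CPM (SD, n = 2 each), a log2 difference of -1.22 ± 0.11 (SE, edgeR adjusted p = 1.81e-06).

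In the transduction chain the G protein subunits differed most. Gng13 went from 32.5 ± 6.85 to 8.75 ± 0.18 CPM (log2 difference -1.87 ± 0.16, edgeR adjusted p = 1.24e-06) and Gnat3 from 301 ± 36.8 to 87.7 ± 19.9 (-1.76 ± 0.12, adjusted p = 2.05e-07). Trpm5 fell by 1.31 on the log2 scale, from 255 ± 12.8 to 101 ± 11.6 CPM (SE 0.16, adjusted p = 1.69e-05). Plcb2 fell by 1.12, from 254 ± 18.1 to 115 ± 17.4 CPM (SE 0.11, adjusted p = 4.72e-06). Among the genes of secreted products, Chat fell by 1.423 (19.0 ± 0.72 to 6.98 ± 1.19 CPM, adjusted p = 8.70e-05), Ptgs1 fell by 1.31 (68.7 ± 5.97 to 27.3 ± 1.76, adjusted p = 2.57e-06) and Il25 fell by 1.195 (6.48 ± 0.79 to 2.78 ± 0.33, adjusted p = 2.70e-04). Avil fell by 1.55 (298 ± 18.1 to 100.3 ± 17.5 CPM, adjusted p = 1.24e-06) and Dclk1 fell by 1.08 (179 ± 6.93 to 83.4 ± 2.54, adjusted p = 1.67e-06). The heterozygous level was thus between 26.9% (Gng13) and 46.7% (Dclk1) of the homozygous level by counts. Within each genotype 9 of the 10 genes were higher in library 1 than in library 2, with Gng13 the exception in 42mT and Plcb2 in 96mT, so the 10 genes are not 10 separate measures of a library.

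**Figure D2:**
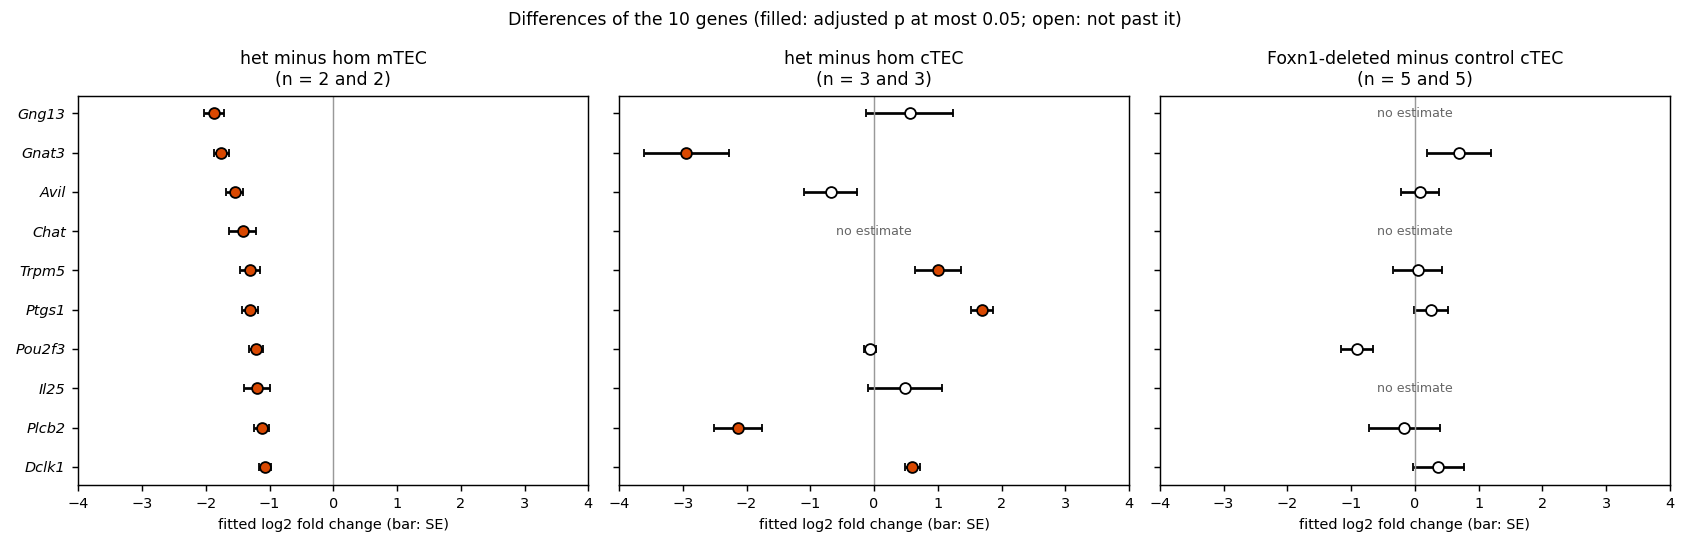
Fitted log2 fold change (horizontal axis, bars are the SE) of each gene in 3 comparisons, with filled points for adjusted p at most 0.05. In mTEC all 10 points lie between -1.87 and -1.08, in cTEC they spread from -2.95 to 1.69, and for the Foxn1 deletion 0 of the 7 tested genes passed the threshold.

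Other genes of the tuft-cell programme moved the same way in mTEC. Of 90 listed genes, 88 were in the table and 79 were tested, and of these 72 were lower in mTEC labelled heterozygous, 1 was higher and 6 did not pass (30.8% and 28.9% of all genes were lower and higher), with a median log2 difference of -1.57. Taste receptors, the sensors at the head of the chain, were lower in 30 of 30 tested (37 in the table), with a median of -2.06. Of the 37, 16 had at least 10 counts in every 42mT library and 31 in every 96mT library. Receptors that passed the filter on low counts through 96mT alone were bound to be lower in 42mT. Their calls add nothing to this count or to the 72 of 79, and both medians include them. The smallest adjusted p were those of the bitter receptors Tas2r118 (13.3 ± 0.10 to 3.44 ± 0.14 CPM, log2 -1.92), Tas2r105 (15.4 ± 1.21 to 3.16 ± 0.26, log2 -2.26) and Tas2r102 (6.09 ± 0.49 to 1.51 ± 0.07, log2 -1.99). In signal transduction 16 of 17 were lower, among them the G protein regulators Rgs21 (66.3 to 13.9 CPM, log2 -2.23) and Rgs13 (71.3 to 19.6 CPM, log2 -1.84) and the kinase Matk (47.2 to 16.2 CPM, log2 -1.52). The calcium release channel Itpr3 was at 160 to 179 CPM in 96mT and 188 to 191 in 42mT and did not pass (adjusted p = 0.161).

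Of 8 transcription factors 5 were lower, led by 1810046K07Rik, a cofactor of Pou2f3 (63.3 to 22.8 CPM, log2 -1.45), Ascl2 (6.51 to 1.30 CPM, log2 -2.30) and Gfi1b (8.70 to 4.57 CPM, log2 -0.90). Sox9, which many epithelial progenitors express, was the single gene higher (log2 0.31, adjusted p = 0.0300), and Spib, a factor of tuft and other mature mTEC, stood at 547 to 591 CPM in 96mT and 570 to 603 in 42mT (adjusted p = 0.755). Of 9 tested eicosanoid and acetylcholine genes 8 were lower, with the prostaglandin D synthase Ptgds going from 41.7 to 4.41 CPM (log2 -3.22), Ptgs2, the inducible cyclooxygenase, from 279 to 35.1 (log2 -2.97) and Alox5ap, needed for leukotrienes, from 69.2 to 15.4 (log2 -2.14). Surface and structural genes were lower in 13 of 15, as in Vil1, villin of the brush border (55.2 to 10.8 CPM, log2 -2.33), Krt20 (81.2 to 25.2 CPM, log2 -1.67) and the cytokine gene Tslp (7.87 to 1.18 CPM, log2 -2.71). The other genes that did not pass were Runx1, Ache, Espn and Cd24a. The choline transporter gene Slc5a7 (2 and 11 counts in 42mT) and the receptor gene Ffar3 (7 and 7) passed the filter on low counts through 96mT. Their lower calls in these lists thus add nothing.

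**Figure D3:**
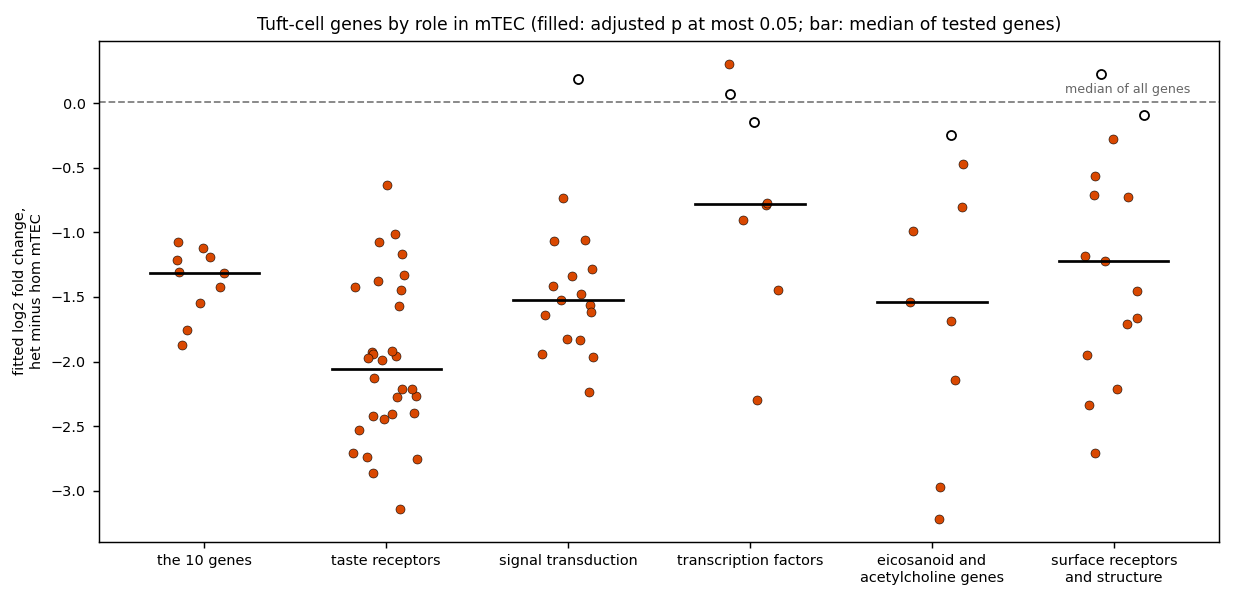
Fitted log2 fold change (vertical axis) between heterozygous and homozygous mTEC for the 10 genes and 5 role lists of other tuft-cell genes, each point a gene, filled where adjusted p was at most 0.05, with a bar at the median. All 30 taste receptors lie below 0 with a median of -2.06, and the dashed line is the median of all tested genes, 0.01. Of 37 receptors in the table, 16 had at least 10 counts in every 42mT library and 31 in every 96mT library. Those that passed the filter on low counts through 96mT alone were bound to lie below 0, and the median includes them.

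Of 10 general mTEC markers 4 were lower, 2 were higher and 4 did not pass, shares near those of all genes. Aire was at 1029 to 1188 CPM in 96mT and 999 to 1019 in 42mT (log2 -0.11, adjusted p = 0.446), and Krt5 gave -0.19 (adjusted p = 0.155). Cd80, a marker of mature mTEC, fell from 70.4 to 29.2 CPM (log2 -1.25, adjusted p = 3.53e-07). Markers of macrophages, dendritic cells and mast cells moved in the same direction as the tuft-cell genes: 13 of 15 tested were lower, and the summed level of the list was 212 to 217 CPM in 42mT and 696 to 800 in 96mT. Lysozyme 2 (Lyz2) was at 87.4 to 87.6 CPM in 42mT and 462 to 552 in 96mT, the receptor Kit at 97.2 to 98.1 and 92.5 to 92.6, and Csf1r, the receptor of macrophages, was at 6.14 to 6.41 and 18.7 to 19.3. The 16 thymocyte markers summed to 93.7 to 95.5 CPM in 42mT and 141 to 165 in 96mT, with 14 lower, and the leukocyte marker Ptprc (CD45) was at 6.92 to 6.94 and 18.8 to 20.6 CPM. Neuronal and glial markers summed to 206 to 212 CPM in 42mT and 322.7 in both 96mT libraries, with 3 of 8 lower and 4 higher. Most of that sum was Syt1, with a mean of 163 CPM in 42mT and 288.5 in 96mT. None of the defining markers of these lists was at 0 in every library of an mTEC group, and the part of these cells in the differences of Plcb2, Ptgs1 and other genes that leukocytes also express was not tested.

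In cTEC the same change of dose gave calls in both directions among the 10 genes. Heterozygous cells had 3 higher (Ptgs1, Trpm5 and Dclk1), 2 lower (Gnat3 and Plcb2) and 5 that did not pass, where 20.9% of all genes were called higher and 21.9% lower. These counts are near the shares of all genes and are no result about the 10 genes as a set. Ptgs1 was at 5.24 ± 0.90 CPM in 42cT and 1.47 ± 0.25 in 96cT (SD, n = 3 each), a log2 difference of 1.69 ± 0.18 (SE, edgeR adjusted p = 4.63e-06). Dclk1 was at 10.6 ± 1.78 and 6.36 ± 0.13 CPM (0.60 ± 0.11, adjusted p = 7.50e-04). Trpm5 was at 2.09 ± 1.23 and 0.95 ± 0.14 CPM (1.00 ± 0.36, adjusted p = 0.0402). The groups of these 3 genes did not overlap, but every 42cT library was above every 96cT library for 30.5% of all genes with counts. The call for Trpm5 leaned on single libraries. Without 42cT library 2, at 3.48 CPM, it was 0.43 (adjusted p = 0.228), and the call was also lost without any 1 of the 96cT libraries, at log2 differences of 0.91 to 1.112, and without either 96mT library, at 1.00. Over 18 alternatives its adjusted p ran from 0.00348 to 0.228.

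The 2 genes lower in heterozygous cTEC are parts of the transduction chain at very low counts. Plcb2 was at 0.32 ± 0.16 CPM in 42cT and 1.31 ± 0.35 in 96cT (log2 -2.13 ± 0.38, edgeR adjusted p = 4.52e-04). Gnat3 was at 0.077 ± 0.027 and 0.57 ± 0.057 CPM, from 5 and 37 counts in all (-2.95 ± 0.66, adjusted p = 0.00275). For each of the 2 every 42cT library was below every 96cT library, as it was for 15.5% of all genes with counts. Pou2f3 was at 30.3 ± 0.58 and 29.0 ± 1.67 CPM, with a log2 difference of -0.07 ± 0.09 (adjusted p = 0.598) that turned to 0.06 without normalization factors. Avil (0.61 ± 0.33 and 0.90 ± 0.32 CPM, adjusted p = 0.208), Il25 (0.17 ± 0.054 and 0.11 ± 0.054, adjusted p = 0.596) and Gng13 (0.15 ± 0.069 and 0.093 ± 0.045, adjusted p = 0.554) overlapped. For Chat both groups were at or under 3 counts, so no fold is given.

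Markers of other cells moved with dose in cTEC too. Of 16 thymocyte markers 15 were lower in 42cT, with summed levels of 51.1 to 69.7 CPM in 42cT and 111 to 162 in 96cT. Ptprc was at 0.93 to 1.23 and 6.35 to 10.99 CPM. Markers of macrophages, dendritic cells and mast cells summed to 17.98 to 25.4 CPM in 42cT and 12.1 to 15.3 in 96cT, with 2 of 15 higher (Cd68 and Kit), 2 lower and the mast-cell protease Mcpt4 at 0 in both groups. Among the mTEC markers 6 of 10 were higher and 3 lower. Krt5 rose from 82.1 to 102 CPM in 96cT to 496 to 591 in 42cT, whereas Aire was at 1.33 to 2.95 and 1.30 to 1.65 CPM. All 8 cTEC markers were lower in 42cT, and the 8 fibroblast markers summed to 220 to 243 CPM there and to 38.4 to 40.6 in 96cT. The part of these cells in the differences of Ptgs1, Dclk1, Trpm5, Plcb2 and Gnat3 was not tested.

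Of the other tuft-cell genes 6 were higher and 17 lower in heterozygous cTEC, and 56 of 79 did not pass, with a median log2 difference of -0.14. With 20.9% of all genes higher and 21.9% lower, the share that was lower is that of all genes and is no result about the list. Among the lower ones were the adaptor Fyb (0.54 ± 0.25 and 3.82 ± 0.44 CPM in 42cT and 96cT, log2 -2.95) and the kinase subunit Pik3cg (0.23 and 1.37 CPM, log2 -2.68), both of which leukocytes also express. Itpr3 was lower as well (121 and 193 CPM, log2 -0.80), as were Ascl2 (2.19 and 5.84 CPM, log2 -1.55), the taste receptor Tas1r3 (1.07 and 1.49 CPM, log2 -0.60), acetylcholinesterase Ache (158 and 715 CPM, log2 -2.31), Krt18 (1375 and 3640 CPM, log2 -1.54) and the receptor subunit Il13ra1 (115 and 175 CPM, log2 -0.74). Higher were Runx1 (68.8 and 20.5 CPM, log2 1.61), Sox9 (155 and 105 CPM, log2 0.44), Alox5, the leukotriene enzyme (5.94 and 1.54 CPM, log2 1.82), Hpgds (9.41 and 6.10 CPM, log2 0.49) and Cd24a (85.3 and 6.88 CPM, log2 3.50).

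**Figure D4:**
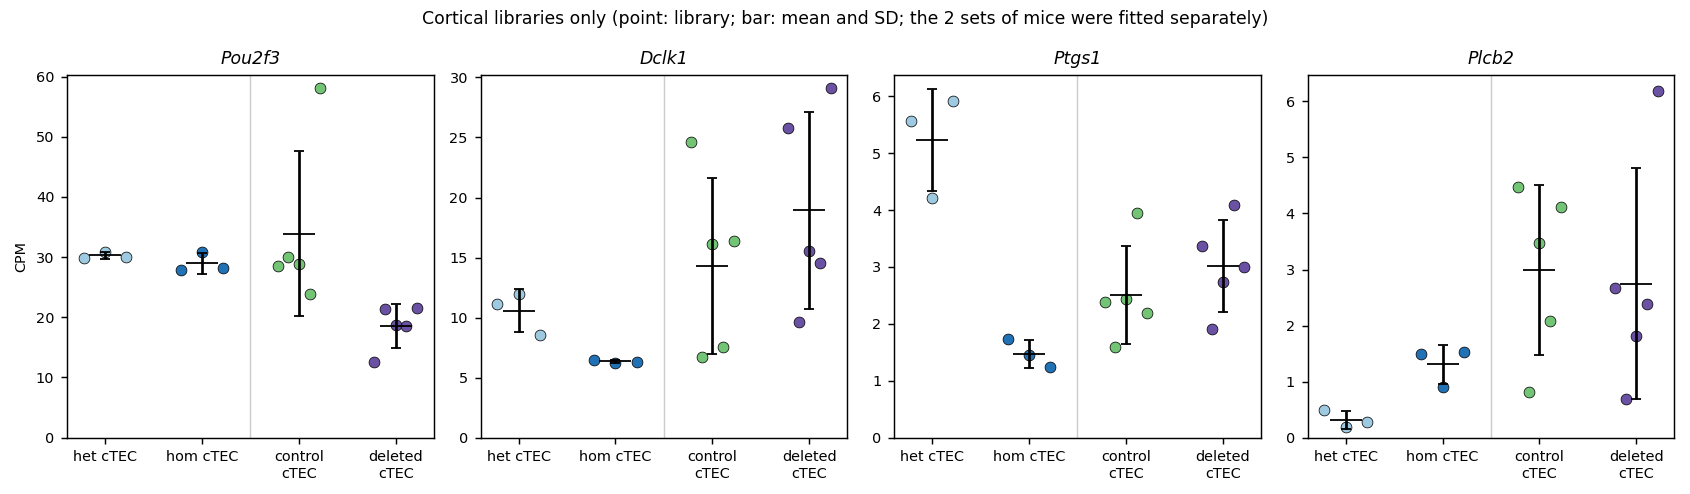
CPM (linear scale) of Pou2f3, Dclk1, Ptgs1 and Plcb2 in the 16 cTEC libraries, with mean and SD; the vertical line divides the transgenic from the deletion set. Ptgs1 and Dclk1 are higher and Plcb2 lower in heterozygous than in homozygous cTEC, and all PcT libraries lie below all NcT libraries for Pou2f3 alone.

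Whether the difference between the labelled doses was unequal in the 2 subsets was tested as an interaction. Of the 10 genes 6 gave a lower mTEC minus cTEC difference in heterozygous than in homozygous mice and 0 a higher one, where 17.2% of all genes were called lower and 25.2% higher. The interaction was -3.00 ± 0.21 (log2, SE) for Ptgs1 (edgeR adjusted p = 3.67e-07), -2.31 ± 0.39 for Trpm5 (adjusted p = 4.00e-04), -1.68 ± 0.15 for Dclk1 (adjusted p = 2.12e-06) and -1.15 ± 0.14 for Pou2f3 (adjusted p = 3.98e-05). Gng13 gave -2.43 ± 0.72 (adjusted p = 0.0154), which without 42cT library 1 was -2.03 (adjusted p = 0.0929, in a range from 0.00475 over 17 alternatives). Il25 gave -1.68 ± 0.63 (adjusted p = 0.0461), a call that was kept under 5 of 17 alternatives and in 1 of 10 fits without a single library, with adjusted p from 0.0213 to 0.170. Gnat3 (1.19 ± 0.73, adjusted p = 0.213), Plcb2 (1.01 ± 0.41, adjusted p = 0.0644) and Avil (-0.87 ± 0.45, adjusted p = 0.142) did not pass, and Chat gave no reading because cTEC held too few counts. The genes that were lower at 1 dose in both subsets, Gnat3 and Plcb2, were thus not among the 6.

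In the same test 12 of the 79 other tuft-cell genes were lower, 6 were higher and 61 did not pass, against 17.2% lower and 25.2% higher of all genes, so the lower share is no result about the list. The lower ones included Cd24a (-3.60), Alox5 (-2.81), 1810046K07Rik (-2.12), Matk (-2.05), Runx1 (-1.76), Tas1r1 (-1.59), Gnb3, the G protein beta subunit of taste cells (-1.34), Hpgds (-1.29) and the adhesion gene L1cam (-1.23). The higher ones included Ache (2.06), Krt18 (1.26) and Itpr3 (0.99).

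Between mTEC and cTEC, 52 of these 79 genes passed the filter only with the mTEC libraries, so their direction was bound to follow. Of the 27 that passed in cTEC alone, 22 were higher in mTEC and 4 lower in homozygous mice, and 23 higher and 4 lower in heterozygous mice. Of all tested genes 43.2% were higher and 39.4% lower in homozygous mice, and 40.4% and 31.6% in heterozygous mice. Lower in homozygous mTEC were Krt18 (872 CPM in mTEC and 3640 in cTEC), Ache (289 and 715), Itpr3 (169 and 193) and 1 transcription factor. In heterozygous mTEC they were Krt18 (708 and 1375) and 3 transcription factors. In homozygous mice the smallest adjusted p in each role were those of Tas2r118 (13.3 CPM in mTEC and 0.047 in cTEC), Tas2r108 (19.2 and 0.031), Tas1r1 (13.6 and 1.12), Pik3r5 (175 and 3.04), Sh2d6 (129 and 0.50), Matk (47.2 and 0.62), 1810046K07Rik (63.3 and 0.22), Spib (569 and 11.1) and Gfi1b (8.70 and 0.016). The enzymes were led by Pla2g4a, the phospholipase that frees arachidonic acid (156 and 7.40 CPM), Alox5 (115 and 1.54) and Ptgs2 (279 and 0.95), and the surface and structural genes by Cd24a (594 and 6.88), Krt20 (81.2 and 0.34) and Vil1 (55.2 and 0.39). Tas2r118, Tas2r108 and Gfi1b held 3, 2 and 1 counts in all 96cT libraries together, and 1810046K07Rik, Krt20 and Vil1 held 14, 22 and 25. These genes passed the filter only with the mTEC libraries, so their calls add nothing.

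In heterozygous mice the same rule gave Tas1r3 (9.36 CPM in mTEC and 1.07 in cTEC), Tas2r108 (6.34 and 0.031), Tas2r118 (3.44 and 0 in all 3 libraries, which allows up to 3 counts in each), Pik3r5 (61.7 and 1.61), Sh2d6 (47.5 and 0.49), Pik3cg (35.7 and 0.23), Spib (587 and 15.5), 1810046K07Rik (22.8 and 0.38) and Gfi1b (4.57 and 0.046). It also gave Pla2g4a (110.7 and 10.5 CPM), Alox5 (57.04 and 5.94), Ptgs2 (35.1 and 0.54), Lrmp (143 and 0.41), L1cam (29.0 and 0.46) and Krt20 (25.2 and 0.23).

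In cTEC taken 72 hours after doxycycline, Foxn1 deletion gave no call among the 10 genes: 0 of 7 tested were higher and 0 lower by edgeR, where 0.282% of 15224 genes were called higher and 1.69% lower. Il25, Gng13 and Chat were too low to be tested. At an unadjusted p under 0.05, Pou2f3 was the 1 gene of the 7, and DESeq2 also called 1. Pou2f3 was at 28.6, 30.0, 28.9, 23.8 and 58.1 CPM in NcT and at 12.6, 21.4, 18.7, 18.6 and 21.6 in PcT. All PcT libraries were below all NcT libraries, which held for 1 of the 10 genes and for 2.53% of all genes with counts. The means were 33.9 ± 13.7 and 18.6 ± 3.61 CPM (SD, n = 5 each) and the log2 difference was -0.90 ± 0.25 (SE, edgeR adjusted p = 0.0950). NcT library 5 stood alone at 58.1 CPM, and it also had the highest sums of cTEC and thymocyte markers, whose part in its level was not tested. Without it the log2 difference was -0.59 (adjusted p = 0.0832). DESeq2 gave -0.90 with an adjusted p of 0.0132, the lowest of 17 alternatives, the highest being 0.213.

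The other 6 tested genes overlapped between the deletion groups. Gnat3 held 1 to 15 counts a library in NcT and 9 to 18 in PcT (log2 0.69 ± 0.50, edgeR adjusted p = 0.476). Dclk1 ranged from 6.75 to 24.6 CPM in NcT (median 16.1) and from 9.63 to 29.1 in PcT (median 15.6), with a log2 difference of 0.37 ± 0.40 (adjusted p = 0.650). Plcb2 ranged from 0.82 to 4.48 CPM in NcT and from 0.68 to 6.18 in PcT (-0.17 ± 0.56, adjusted p = 0.900). Dclk1 and Plcb2 thus varied several times over within each group. Ptgs1 was at 2.51 ± 0.87 CPM in NcT and 3.02 ± 0.80 in PcT (0.25 ± 0.27, adjusted p = 0.644). Trpm5 (1.39 ± 0.70 and 1.44 ± 0.51 CPM) and Avil (1.28 ± 0.50 and 1.37 ± 0.35 CPM) had log2 differences of 0.04 ± 0.39 and 0.08 ± 0.30 (adjusted p = 0.966 and 0.913). Il25 held 0 to 4 counts in NcT and 3 to 10 in PcT, Gng13 0 to 5 and 0 to 4, and Chat 0 to 4 and 0 to 3. Of 33 other tuft-cell genes tested, 1 was lower, Ache (374 ± 219 to 51.8 ± 11.7 CPM, log2 -2.89 ± 0.38, adjusted p = 0.00934), and 0 were higher. At the same time 6 of 8 cTEC markers were lower in PcT, and of the thymocyte, the fibroblast and the macrophage, dendritic and mast-cell markers 0 passed. The fibroblast markers summed to 357 to 842 CPM in NcT and 778 to 1426 in PcT, and library 5 was the lowest of NcT. The part of these cells in the values of the 10 genes was not tested.

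Ranked by mean level, the 10 genes shared the top of the order and differed below it. Homozygous mTEC were first and heterozygous mTEC second for all 10, without overlap between them. Of all genes with counts, 36.6% had both 42mT libraries below both 96mT libraries. Heterozygous mTEC lay above every cTEC library for 9 genes, while for Pou2f3 they overlapped with NcT through library 5. Among the 4 cTEC groups, 42cT was the highest for Ptgs1 and Trpm5 and the lowest for Gnat3, Avil and Plcb2, with overlap with the next group for Trpm5, Gnat3 and Avil. Il25, Gng13 and Chat had too few counts in cTEC for an order. Ptgs1 in 42cT did not overlap the next group, PcT (4.22 CPM at the lowest against 4.09 at the highest). Plcb2 in 42cT did not overlap 96cT, the next above it, nor did Dclk1 in 96cT overlap 42cT. The transgenic and deletion mice were not tested against each other. The ranking compares groups within a gene, since no transcript lengths were at hand to compare genes.

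Genes whose profile over the 6 groups was most like that of 3 of the members were taken by the smallest root mean square difference between centred group means of log2(CPM + 0.1), over 16685 genes. For Pou2f3 these were Styxl1, Rbm44, Samd15, Tdrkh and Slc5a7, the neuronal choline transporter, at differences of 0.19 to 0.22. The group means of Slc5a7 ran from 0.16 to 1.02 CPM. None of the other 9 members was close to Pou2f3, the nearest being Dclk1 at a difference of 1.24, rank 13173. For Trpm5 the nearest were Cldn7, a tight-junction claudin, Ces5a, Chi3l1, Sh2d6 and Calhm3, the channel subunit that releases transmitter in taste cells, at 0.20 to 0.33. Gng13 came between them at rank 4 and Chat at rank 37. Cldn7 was at 165 CPM in 96mT, 85.7 in 42mT and 0.70 to 1.58 in the cTEC groups. For Plcb2 the nearest were Cd52, a leukocyte surface gene, Dscaml1, Kynu, Cd80 and Cdhr5, a brush-border cadherin, at 0.14 to 0.29, with Avil at rank 58 and Chat at rank 150. Cd52 was at 219 CPM in 96mT, 86.4 in 42mT, 1.29 in 96cT and 0.26 in 42cT. Gng13 and Chat held 5 or fewer counts in each cTEC library, so their ranks lean on the 0.1 CPM added there. The 6 points share their libraries and depth, and the likeness is a description.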

How the data were processed

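Polyadenylated RNA from sorted thymic epithelial cells was sequenced as 20 libraries with TruSeq kits, per the labels' protocols. The authors deposited read counts per gene, raw whole numbers, which were used as they stand. The submitters' processing notes name TopHat2 2.0.10, Trimmomatic 0.32 and featureCounts and the builds mm10 and GRCm38, with no role for each; neither the annotation nor the strand setting is given in the sources used here. The chromatin samples are not analysed here. Markers of B cells are not reported here.

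Tests on the counts used edgeR 4.0.16 under R 4.3.3 (two-sided quasi-likelihood test, TMM factors, filterByExpr with minimum count 10 and total 15, Benjamini-Hochberg adjustment over all genes of the fit, threshold 0.05). The deletion fit held its own 10 libraries, and the 10 transgenic libraries shared 1 fit with 4 groups, since mTEC groups hold 2 libraries. CPM use library totals. Replicates differed by more than counting noise. The tests were also run on simulated counts with known fold changes. That simulation held neither the large differences between mTEC and cTEC nor changed genes at very low counts, so it does not bear on those. Alternatives were DESeq2 1.42.0, limma 3.58.1 (voom), other scaling factors and filters, fits of 2 groups, a replicate block, and each library left out.

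The members and lists were chosen with earlier results of these data known. All 10 members were named in each comparison; of other tuft-cell genes, up to 3 per role and comparison with the smallest adjusted p among called genes were named, plus Foxn1, 5 profile neighbours for each of 3 members, and marker genes. Itpr3, Spib, Sox9, Runx1, Ache, Espn, Cd24a, Slc5a7 and Ffar3 in mTEC, and the single markers of other cells, were named after their values were seen. The same holds for Krt18, Ache and Itpr3 between mTEC and cTEC. Promoter windows and gene spans are from RefSeq (GRCm38.p6). Exact 95% intervals and the limits for counts of 0 (3 counts) cover counting error only.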

Additional observations from a re-analysis of the deposited data

Results flagged for a closer look

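Among the 5 libraries of a group, 1 lay far from the others in 2 of 20 combinations of gene and deletion group tested, where chance flags about 1 in 20. Pou2f3 was at 58.06 CPM in NcT library 5 (the gap was 0.818 of the whole range), and Il25 was at 0 counts in NcT library 1 (0.740 of the range), where the other 4 libraries held 3 or 4 counts.

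For 6 genes the effect of the labelled transgene dose differed between mTEC and cTEC by the interaction test (edgeR, adjusted p at most 0.05). The mTEC minus cTEC difference of the dose effect, on the log2 scale, was -1.145 for Pou2f3, -2.313 for Trpm5, -1.676 for Il25, -1.676 for Dclk1, -2.431 for Gng13 and -3.004 for Ptgs1. Il25 held 11 counts in all 42cT libraries together and 7 in 96cT, and Gng13 held 10 and 6, so both values are poorly measured. Il25 kept its call in 5 of 17 alternatives and Gng13 in 16 of 17.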

How the results depend on the processing

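All 10 calls in mTEC by dose held under 18 of 18 alternatives, as did every call between mTEC and cTEC except Pou2f3 in heterozygous mice (17 of 18). In cTEC by dose Gnat3, Plcb2, Dclk1 and Ptgs1 kept their calls in 18 of 18. Trpm5 kept its call in 9 of 18, losing it also with voom (0.84, adjusted p = 0.147), without a count filter (0.99, adjusted p = 0.143) and in a fit of 2 groups (1.00, adjusted p = 0.0645). Il25 in the interaction kept its call in 5 of 17 and Gng13 in 16 of 17. The number of members higher in the interaction ran from 0 to 2 over the fits without 1 library, against 0; Gnat3, Avil and Plcb2 were called in 1, 1 and 3 alternatives. The cause of each change was not tested.

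The number of members lower after deletion was 1 with DESeq2 and 1 with the replicate block, against 0, and in both it was Pou2f3. With the library number as a replicate block Pou2f3 gave -0.84 (adjusted p = 0.0349), and 822 genes were lower and 398 higher, against 257 and 43. Same-numbered deletion libraries correlated at 0.0853 to 0.754 and 8 of 10 correlated best with their own number, which hints at pairing in the data but is not stated in the labels. In the transgenic set these correlations were 0.0517 to 0.0706 by dose, and each library correlated best with its own number. With 2 mTEC libraries in a group, centred on their mean, such a match is all or none, so in mTEC it does not bear on pairing. Between mTEC and cTEC, 0 of 5 libraries in homozygous and 2 of 5 in heterozygous mice correlated best with their own number. The block changed 1 other call, that of Il25 in the interaction (edgeR adjusted p = 0.0677).

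Signs turned for values that were not called. Pou2f3 in cTEC by dose was 0.06415 without normalization factors. Without single libraries the deletion differences ran from -0.1624 to 0.2157 for Trpm5, -0.05903 to 0.2692 for Avil and -0.689 to 0.0876 for Plcb2. Chat, with 4 counts in the 6 cTEC libraries, ran from -3.249 to 1.877 by dose in cTEC, and in the interaction from -3.298 to 1.818 without single libraries. The interaction of Chat was -0.1388 without normalization factors, -0.1339 with upper-quartile factors, -0.873 with voom, -0.03689 without a filter, -0.01782 with a filter of 1 CPM and -0.009028 with the replicate block.

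Counts over all genes moved more. After deletion, DESeq2 called 327 higher and 781 lower, voom 15 and 89, and fits without 1 library 0 to 188 higher and 27 to 732 lower. The lower share of calls was 51.1% in cTEC by dose and 32.5% without normalization factors (2859 lower and 5931 higher, a median shift of 0.134). It was 51.6% in mTEC by dose and 62.8% with DESeq2 (5784 lower and 3430 higher, a shift of -0.128), and 47.7% between homozygous subsets and 37.4% without factors or 37.2% with upper-quartile factors (shifts of 0.244 and 0.248). In the interaction it was 40.6%, and 53.1% with DESeq2, 57.1% without factors and 54.8% with upper-quartile factors (shifts of -0.127, -0.158 and -0.138), where higher calls numbered 3177, 3101 and 3310 against 4848. At 5 or fewer counts a library, as for Il25, Gng13 and Chat in cTEC, depth limits what can be seen.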
